A study of Homo sapiens with 12 samples.

Results

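The response of human colon myofibroblasts to Wnt3A alone was examined in 6 of the 12 RNA-sequencing libraries of the series: 3 from cultures treated with Wnt3A and 3 from cultures treated with vehicle. Members were chosen by treatment label, and the response was described across the 12216 genes with enough reads for a test, of 21893 listed. CCD-18Co is a line of myofibroblasts from normal human colon, the contractile connective-tissue cells that lie under the epithelium, so both groups stand for 1 line. Wnt3A cultures received 100 ng/ml recombinant human Wnt3A for 24 h, and vehicle cultures received the solvents of both agents (ethanol for the hormone, bovine serum albumin in phosphate-buffered saline for Wnt3A). The remaining libraries came from cells given 100 nM of the vitamin D hormone 1α,25-dihydroxyvitamin D3 alone (VD) or together with Wnt3A (Wnt3A+VD) for 24 h, with 3 libraries each. The study numbered 3 independent experiments, each giving 1 library of every group, and the questions here are which genes Wnt3A moved and how far that response was the same beside the hormone.

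Wnt3A is a secreted lipid-modified ligand that binds Frizzled receptors and the co-receptors LRP5 and LRP6. Binding stops the destruction complex, built on AXIN and APC, from degrading β-catenin, which then enters the nucleus and acts with DNA-bound TCF/LEF factors to switch genes on. Many of the genes switched on restrain the pathway itself, and in the colon the stromal cells around the crypt base are both a source of Wnt ligands and a cell type that receives them.

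The 6 libraries held 5363668 to 6191675 reads (aligned bases divided by the read length of 40), and 14915 to 15116 genes had at least 1 read. Levels are given as CPM, a gene's reads relative to all reads of its library after scaling by trimmed means, and a change is the log2 fold change of Wnt3A over vehicle with its standard error. A gene was called when the adjusted p of edgeR's quasi-likelihood test was under 0.05. Vimentin, collagen and other fibroblast genes were abundant in every library. KRT20, VIL1, CDX2, LGALS4 and MUC2 of epithelium, and CD3E, LYZ and TPSAB1 of blood cells, had no read in any of the 6 libraries. The smooth muscle gene DES had 1 read in each group in all, and MYH11 had 13 reads with vehicle and 9 with Wnt3A. The vehicle library of experiment 2 stood apart in endothelial genes: PECAM1, CDH5, VWF, KDR, ERG and EMCN summed to 109 reads there and to 13 to 32 reads in each of the 11 other libraries. CDH5 had 23 reads there and 0 or 1 in the 5 other libraries of both groups. TEK, at 54 to 86 reads in each of the 6, was not in that sum. The part of these reads in the results below was not tested, and the main counts are given without that library too.

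Wnt3A changed many genes by small amounts and few by large ones. In RNA from whole cultures, a lower level can mean fewer cells that express a gene or less RNA in each, which cannot be told apart here. Wnt3A raised 606 genes, 4.96% of those tested, and lowered 407, or 3.33%. These 2 shares are the ones to set beside the counts of every gene list below. Among these, 63 were at least 2-fold higher and 13 at least 4-fold higher, whereas 22 were at least 2-fold lower and 0 at least 4-fold lower. The median log2 change was 0.50 over the genes that rose and -0.42 over those that fell, beside -0.0037 over all genes tested. Of the genes that rose, 605 were higher in each of the 3 experiments and 594 had no overlap between the groups; of those that fell, the numbers were 406 and 399. Groups that did not overlap occurred in 21.8% of all tested genes. With the experiment number as a block, 900 genes rose (7.37%) and 755 fell (6.18%), and these included all 1013 genes called without it. Without vehicle replicate 2 the counts were 402 higher and 297 lower.

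**Figure D1:**
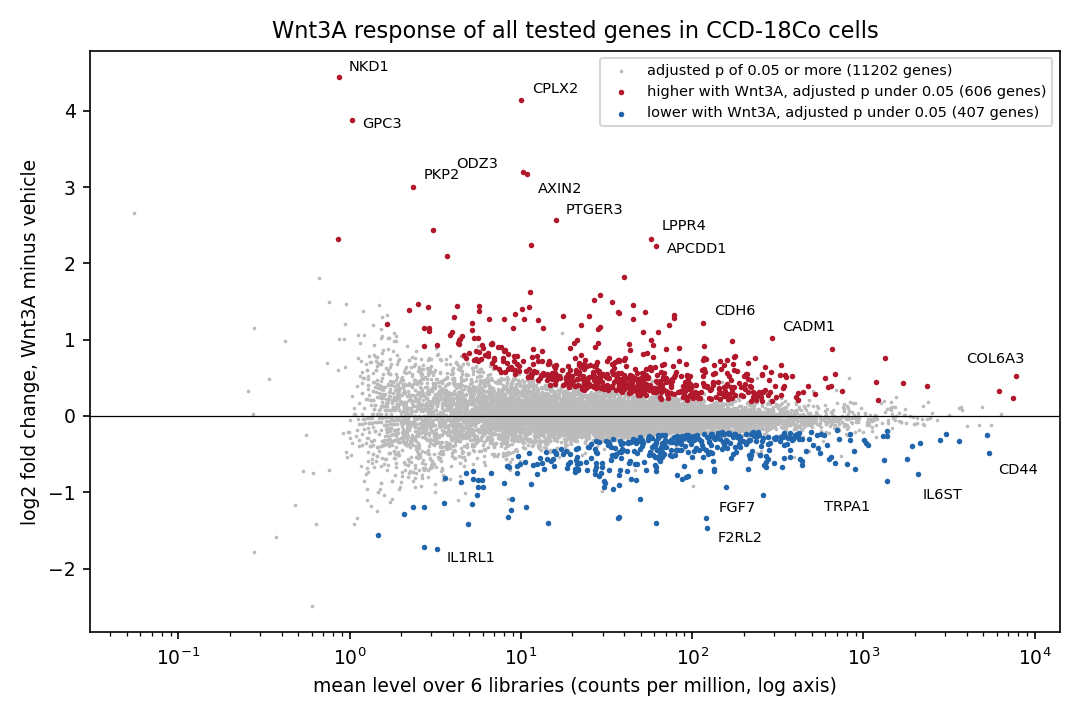
Each point is a gene, with its mean level over the 6 libraries (CPM, log axis) against its log2 fold change, Wnt3A minus vehicle; red points rose and blue points fell at adjusted p under 0.05, and grey points did not pass. The 606 red points reach up to 4.44 on the log2 scale and the 407 blue points down to -1.75; 1 tested gene with no read in these libraries is not drawn.

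Inhibitors of the pathway itself were among the genes that rose furthest. AXIN2 (chr17:63524683-63557740 in the hg19 coordinates of the files), a scaffold of the destruction complex and the most used readout of β-catenin activity, measured 1.91, 2.08 and 2.495 CPM with vehicle and 23.6, 18.6 and 16.5 CPM with Wnt3A. NKD2 (chr5:1009168-1038925), a cytoplasmic protein that binds Dishevelled, measured 13.6, 17.3 and 10.5 CPM with vehicle and 42.7, 47.6 and 29.4 CPM with Wnt3A. APCDD1 (chr18:10454625-10488698), a membrane glycoprotein that binds Wnt and LRP5, measured 24, 26.9 and 14.3 CPM with vehicle and 113, 124 and 67.5 CPM with Wnt3A. For all 3 genes every Wnt3A library lay above every vehicle library, and for NKD2 and APCDD1 experiment 3 was lowest in both groups. The log2 changes were 3.17 ± 0.20, adjusted p = 6.86e-11 for AXIN2, 1.53 ± 0.18, adjusted p = 4.37e-05 for NKD2 and 2.22 ± 0.34, adjusted p = 0.00419 for APCDD1.

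NKD1 (chr16:50582241-50668641), the close relative of NKD2, was nearly silent with vehicle. It had 1 read over the 3 vehicle libraries and 29 over the 3 Wnt3A libraries, with 1.47, 2.37 and 1.16 CPM in the latter. The ratio of the summed reads, corrected for library size, was 29.6, with a 95% counting interval of 4.91 to 1210 (exact binomial, counting error only). The adjusted p of edgeR's test was 0.000299. Mean levels were 0.055 CPM with vehicle and 0.42 CPM with the hormone alone. NKD1 thus had enough reads for the test only through libraries with Wnt3A, where it was high, and its p carries that limit. ZNRF3 (chr22:29279890-29453475), a ubiquitin ligase that removes Frizzled receptors from the membrane, measured 10.6, 8.96 and 10.7 CPM with vehicle and 15.8, 17.3 and 16.8 CPM with Wnt3A, and its groups did not overlap (0.72 ± 0.14, adjusted p = 0.000969). Its partner RNF43 had no read in these 6 libraries. NOTUM, an extracellular enzyme that strips the lipid from Wnt proteins, was close to its detection limit with 2, 3 and 4 reads against 9, 4 and 12, and it did not pass the test (1.47 ± 0.65, adjusted p = 0.219).

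In all, 13 of 14 listed genes of feedback and destruction could be tested, and 5 rose and 2 fell. DACT1, a Dishevelled-binding protein, went the other way from its fellow inhibitors, at 78.95, 77.3 and 80.3 CPM with vehicle and 53.1, 58.2 and 51.4 CPM with Wnt3A (-0.54 ± 0.082, adjusted p = 5.8e-05). The other that fell was BTRC, the substrate receptor that marks β-catenin for destruction. AXIN1, APC, GSK3B, CSNK1A1 and DACT3 did not pass the test. The median of the list was 0.049, and it spanned -0.54 to 4.44.

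DKK2 (chr4:107842959-107957453), a secreted ligand of LRP6 of the Dickkopf family, rose and was the only one of 7 tested secreted antagonists and their co-receptors called without the block. It measured 4.87, 2.24 and 4.99 CPM with vehicle and 19.1, 15.3 and 22.1 CPM with Wnt3A, with no overlap (2.23 ± 0.27, adjusted p = 3.88e-05). DKK1, the best known Wnt antagonist of that family, measured 69.04, 54.4 and 73.4 CPM with vehicle and 82.5, 67.7 and 91.3 CPM with Wnt3A. Its groups overlapped, yet each Wnt3A library was above the vehicle library of its own experiment, and the adjusted p of 0.113 became 0.00116 with the experiment as a block. With that block 2 of the 7 rose and 1 fell.

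The nuclear partners of β-catenin moved less. TCF7, which encodes TCF1 and is itself a Wnt target, measured 7.13, 6.4 and 8.82 CPM with vehicle and 18.2, 14.8 and 20.3 CPM with Wnt3A (1.26 ± 0.16, adjusted p = 7.65e-06). LEF1, its relative, measured 28.4, 31.5 and 34.4 CPM with vehicle and 44.01, 46.7 and 41.7 CPM with Wnt3A (0.49 ± 0.099, adjusted p = 0.00151). TLE4, a Groucho corepressor that sits on TCF factors when β-catenin is absent, measured 26.3, 26.4 and 31.9 CPM with vehicle and 45.8, 46.9 and 47.2 CPM with Wnt3A (0.73 ± 0.095, adjusted p = 8.68e-06). None of these 3 genes had overlapping groups. With TLE1 (0.42, adjusted p = 0.0496) they made up the 4 members called of 15, and none of the 15 fell. TLE1 lost its call in 12 of 18 alternatives, 5 of them with a library left out. The gene for β-catenin itself, CTNNB1, stayed between 419 and 432 CPM in all 6 libraries (-0.012 ± 0.058, adjusted p = 0.952), and TCF7L1 and TCF7L2 did not pass the test. Exons of TCF7 and LEF1 overlap those of a gene on the other strand (SKP1 and LEF1-AS1), as do those of NKD1, DKK1, IL6ST, THBS1, VIM and ACTA2, and whether the counting used strand is not given in the sources used here. Exons of AXIN2, SRXN1, OSGIN1, IL1RL1 and PDGFRA overlap those of a gene on the same strand.

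Among 13 tested Wnt receptors none rose and 3 Frizzled genes fell. FZD4 measured 60.2, 63.8 and 56.7 CPM with vehicle and 34.1, 35.8 and 31.6 CPM with Wnt3A (-0.83 ± 0.087, adjusted p = 2.6e-07), and its exons overlap those of PRSS23 on the other strand. FZD8 measured 16.4, 12.3 and 16.1 CPM with vehicle and 9.29, 6.57 and 7.98 CPM with Wnt3A (-0.90 ± 0.19, adjusted p = 0.00268). FZD1 measured 85.04, 92 and 82.5 CPM with vehicle and 69.3, 57.1 and 64.2 CPM with Wnt3A (-0.44 ± 0.078, adjusted p = 0.000356). The groups of all 3 receptors lay apart. LRP5, LRP6, ROR1 and the remaining Frizzled genes did not pass.

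Of 25 listed ligands and secretion factors only 7 had enough reads, and WNT3A itself had none. WNT16 fell from 115, 99.5 and 116 CPM with vehicle to 75.3, 60.97 and 73.98 CPM with Wnt3A (-0.65 ± 0.087, adjusted p = 9.97e-06). WNT5A, the typical non-canonical ligand of mesenchyme, rose from 466, 434 and 508 to 601, 541 and 583 CPM (0.29 ± 0.07, adjusted p = 0.00662). WNT5A did not pass without vehicle replicate 2 (0.23) or without Wnt3A replicate 1 (0.25). Both pairs of groups were separate, and experiment 2 was the lowest in each group of each gene.

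**Figure D2:**
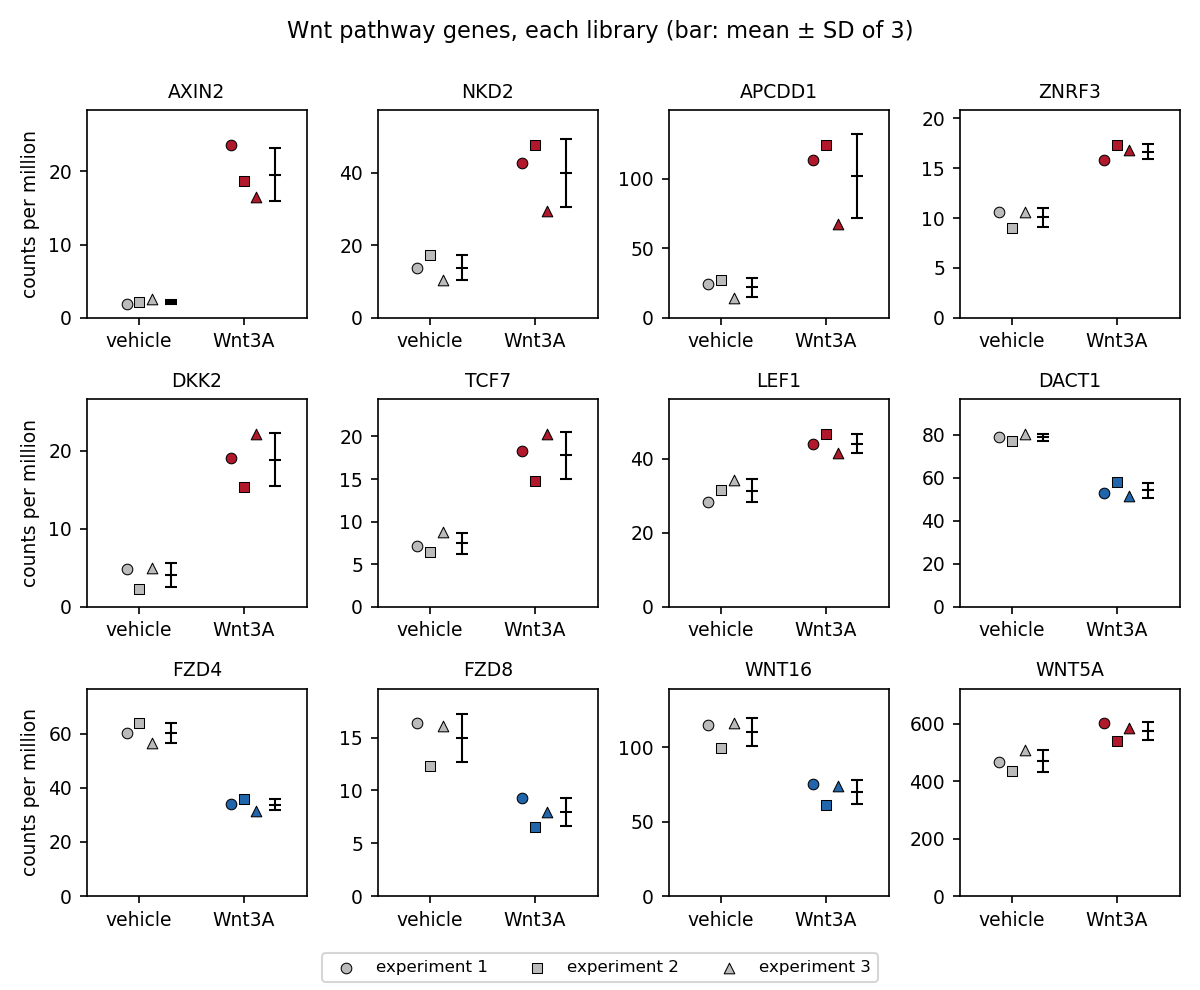
Levels of 12 Wnt pathway genes in CPM in each vehicle (grey) and Wnt3A library (red where the gene rose, blue where it fell), with the experiment shown by the symbol and bars for the mean ± SD of 3 libraries. AXIN2 runs from 1.91 to 2.50 CPM with vehicle and from 16.5 to 23.6 CPM with Wnt3A, while WNT5A and LEF1 differ by less than 2-fold.

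Genes often listed as Wnt targets in other tissues mostly stayed below the threshold when the experiment was not a block. Of 24 tested, 3 rose and 2 fell, and with the experiment as a block 11 rose and 2 fell. TNFRSF19 (also called TROY), a TNF receptor family member of stem cells, measured 22.1, 24.6 and 15.3 CPM with vehicle and 58.4, 53.3 and 47.4 CPM with Wnt3A (1.36 ± 0.18, adjusted p = 0.00017), with no overlap. SOX4 and ID2 rose by less (0.53 and 0.40). CD44, the hyaluronan receptor, fell from 6286, 6029 and 6757 to 4599, 4305 and 4675 CPM (-0.49 ± 0.067, adjusted p = 1.26e-05), and all 3 Wnt3A libraries were below the vehicle libraries. CCND1, MMP14 and CYR61 had changes of 0.14, 0.17 and 0.15 that did not pass without the block (adjusted p = 0.215, 0.163 and 0.536) and did with it (0.0173, 0.00403 and 0.0227). MYC stayed at 17.5 to 20.5 CPM in all 6 libraries (0.06 ± 0.14, adjusted p = 0.892). SP5 had no read in them.

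Genes outside the Wnt pathway lists above were also among the largest rises. CPLX2 (chr5:175223610-175311023), a complexin that binds the fusion machinery of synaptic vesicles, measured 1.39, 1.28 and 0.499 CPM with vehicle and 19.2, 20.8 and 17.1 CPM with Wnt3A. ODZ3 (chr4:183245137-183724177), the teneurin gene now named TENM3, measured 1.91, 1.76 and 2.33 CPM with vehicle and 19.1, 22.1 and 14.6 CPM with Wnt3A. PKP2, a plakophilin of desmosomes, measured 0.174, 0.64 and 0.665 CPM with vehicle and 2.93, 6.21 and 3.49 CPM with Wnt3A. In all 3 genes the lowest Wnt3A library was several times the highest vehicle library. Their log2 changes were 4.14 ± 0.29, adjusted p = 3.49e-10, then 3.2 ± 0.22, adjusted p = 1.16e-10, and 3.0 ± 0.44, adjusted p = 3.45e-05. GPC3, a glypican that carries heparan sulphate, had 2 reads with vehicle and 34 with Wnt3A. That ratio was 17.4, with a 95% counting interval of 4.45 to 149, and the adjusted p of edgeR's test was 0.000405. Like NKD1, GPC3 had enough reads for the test only through libraries with Wnt3A. Its mean was 0.11 CPM with vehicle and 0.24 CPM with the hormone alone.

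PTGER3 (chr1:71318036-71513491), the EP3 receptor for prostaglandin E2, measured 4.695, 3.2 and 5.99 CPM with vehicle and 26.4, 23.4 and 32.1 CPM with Wnt3A (2.56 ± 0.18, adjusted p = 1.84e-10). LPPR4 (now PLPPR4), a phospholipid phosphatase-related membrane protein, measured 16.9, 21.6 and 18.6 CPM with vehicle and 104, 104 and 78.1 CPM with Wnt3A (2.32 ± 0.20, adjusted p = 2.35e-05). COLEC12, a scavenger receptor, measured 18.9, 21.9 and 11.8 CPM with vehicle and 67.8, 67.5 and 51.2 CPM with Wnt3A (1.82 ± 0.22, adjusted p = 0.000386). No library of either group crossed into the other for these genes, and experiment 3 had the lowest COLEC12 in both groups. FAM162B, ILDR2, KCNQ5 and IL16 completed the 15 largest rises with changes of 2.44, 2.1, 1.63 and 1.58. The exons of IL16 overlap those of STARD5 on the other strand.

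The most precisely measured rises were smaller. CADM1, an adhesion molecule of the immunoglobulin family, measured 199.6, 195 and 183 CPM with vehicle and 392, 403 and 381 CPM with Wnt3A (1.03 ± 0.062, adjusted p = 3.35e-11). CDH6, cadherin-6, measured 67.1, 67.8 and 75.3 CPM with vehicle and 166, 159 and 162 CPM with Wnt3A (1.21 ± 0.071, adjusted p = 3.35e-11). ZNF503, a zinc finger repressor, measured 26.4, 22.7 and 23.8 CPM with vehicle and 65.8, 63.3 and 69.8 CPM with Wnt3A (1.45 ± 0.096, adjusted p = 1.08e-10). The spread within each group was narrow beside the gap between groups. GPR125, SGK223 and KIAA0355 (now ADGRA3, PRAG1 and GARRE1) rose by 1.36, 1.19 and 1.28. OSR1, a transcription factor of mesenchymal progenitors, measured 2.96, 2.24 and 1.66 CPM with vehicle and 7.497, 6.02 and 5.15 CPM with Wnt3A (1.45 ± 0.24, adjusted p = 0.000202).

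Receptors and secreted factors were among the largest falls. IL1RL1, the receptor of interleukin-33, measured 3.13, 4.64 and 7.15 CPM with vehicle and 1.96, 0.913 and 1.496 CPM with Wnt3A. F2RL2 (chr5:75911307-75919240), the thrombin receptor PAR3, measured 161, 194 and 184 CPM with vehicle and 59.6, 70.5 and 65.5 CPM with Wnt3A. FGF7 (chr15:49715375-49779523), keratinocyte growth factor, which stroma supplies to epithelium, measured 176, 143 and 197 CPM with vehicle and 69.1, 52.2 and 82.5 CPM with Wnt3A. All 3 were lower in every Wnt3A library, with F2RL2 the most even within groups. Their log2 changes were -1.75 ± 0.39, adjusted p = 0.00448, then -1.46 ± 0.089, adjusted p = 4.95e-11, and -1.34 ± 0.17, adjusted p = 0.000598. F2RL2 shares exon sequence on the other strand with IQGAP2.

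CMKLR1, the chemerin receptor, measured 50.8, 55.8 and 52.6 CPM with vehicle and 24.4, 20.99 and 17.8 CPM with Wnt3A (-1.33 ± 0.11, adjusted p = 1.09e-08). TSPAN12, a tetraspanin that helps FZD4 signal for the ligand Norrin, measured 74.95, 80.5 and 113 CPM with vehicle and 31.9, 32.7 and 37.2 CPM with Wnt3A (-1.4 ± 0.18, adjusted p = 0.000258). TACR1, the receptor of substance P, measured 49.7, 43.2 and 68.4 CPM with vehicle and 19.6, 18.98 and 25.9 CPM with Wnt3A (-1.32 ± 0.17, adjusted p = 7.55e-05). The groups were separate for each gene, and experiment 3 gave the highest vehicle level of TSPAN12 and TACR1. ANGPTL4, SLC7A2, AKR1B10, C10orf81, FOS, INHBB, TNFAIP6, TMOD1 and LOC100130331 made up the remainder of the 15 largest falls, between -1.72 and -1.2. TNFAIP6 and LOC100130331 each lost the call in 8 of 18 alternatives and FOS in 5. TRPA1, a cation channel, fell from 1672, 1722 and 1895 to 906, 942 and 1070.0 CPM (-0.86 ± 0.071, adjusted p = 4.66e-09), and GPRC5A, an orphan receptor, fell by 0.93 on the log2 scale (adjusted p = 2.23e-09).

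Genes of cell division rose together in RNA at 24 h. In a dye-based assay of the same line at a later time, the study reported less proliferation with Wnt3A. Of 44 genes of DNA replication, 27 rose and none fell, with a median of 0.47. Of 40 genes of mitosis, 31 rose and none fell, with a median of 0.45. Over all tested genes 4.96% rose, with a median of -0.0037. In each of the 3 experiments 42 of the 44 and 38 of the 40 were higher with Wnt3A, whereas 21.2% of all tested genes were higher in all of them. The size was modest in most members. The largest changes on the log2 scale were 0.85 (E2F2) in the replication list and 0.79 in the mitosis list (SKP2, a regulator of p27 listed there).

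MKI67, the gene of the proliferation antigen Ki-67, measured 144, 167 and 174 CPM with vehicle and 272, 239.7 and 277 CPM with Wnt3A (0.70 ± 0.074, adjusted p = 3.46e-07). TOP2A, the topoisomerase that untangles sister chromatids, measured 207, 210.4 and 204 CPM with vehicle and 301, 301 and 309 CPM with Wnt3A (0.55 ± 0.063, adjusted p = 1.03e-06). RRM2, the regulated subunit of the enzyme that makes deoxyribonucleotides, measured 252, 202 and 238 CPM with vehicle and 352, 315 and 369 CPM with Wnt3A (0.58 ± 0.077, adjusted p = 9.53e-06). The groups did not overlap for any of the 3, and the vehicle libraries ran from 202 to 252 CPM for RRM2, with experiment 2 the lowest. CDK1, which starts mitosis, was at 109.5, 109.7 and 110.2 CPM with Wnt3A against 83.5, 69.3 and 74.2 with vehicle (0.54 ± 0.072, adjusted p = 1.03e-05). UHRF1, MCM7, CLSPN, POLE and FEN1 of replication rose by 0.68, 0.56, 0.54, 0.49 and 0.49. SKP2, which targets the inhibitor p27 for destruction, rose by 0.79, and NDC80 and CENPF of the kinetochore by 0.67 and 0.51.

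Regulators of G1 phase did not follow as a group. Of 21 tested, CDK2, RBL1 and CDKN2C rose (0.60, 0.39 and 0.42) and BTG1, a growth arrest gene, fell (-0.27 ± 0.077, adjusted p = 0.0262); with the block 4 rose and 3 fell. These calls rested on single libraries: 1 gene rose without vehicle replicate 2, vehicle replicate 3 or Wnt3A replicate 1, 0 fell without any of these or without Wnt3A replicate 3, and 2 fell without vehicle replicate 1. RBL1, CDKN2C and BTG1 lost their calls in 10, 8 and 7 of 18 alternatives. The replication count rested on single libraries more than the mitotic one: it was 15 without vehicle replicate 2, 14 without Wnt3A replicate 1, 15 without Wnt3A replicate 3 and 18 without vehicle replicate 3. The mitotic count stayed between 21 and 34 when each library was left out in turn, and 36 members of each list were called with the experiment as a block.

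Promoters of these genes were searched for the words by which cell-cycle genes are known to be timed. E2F factors drive replication genes through the words TTTGGCGC and TTTCGCGC, and the DREAM complex and MYBL2 with FOXM1 time mitotic genes through the cell cycle homology region, whose core is TTTGAA. Windows from 250 bases before to 50 bases after the start were taken from RefSeq (GRCh38.p14, a later build than the hg19 of the files) and searched on both strands. Such a window was found for 38 of the 44 replication genes and 34 of the 40 mitotic genes. An E2F word was present in 12 of the 38, or 31.6%, beside 2.13% of the windows of all tested genes and 1.18% of all 27305 windows. The core TTTGAA was present in 25 of the 34, or 73.5%, beside 9.7% of tested genes and 15.4% of all windows. It was present in 22.1% of the windows of genes that rose and 11.9% of those that fell. These matches describe the sequences, and the lists were not chosen for them. Examples are shown because their genes rose, with the E2F word (E2F1, MCM7) or the TTTGAA core (PLK1, CCNB2) in capitals. The windows are chr20:33686336-33686635 on the minus strand for E2F1, chr7:100101348-100101647 on the minus strand for MCM7, chr16:23678639-23678938 on the plus strand for PLK1 and chr15:59104896-59105195 on the plus strand for CCNB2.
E2F1: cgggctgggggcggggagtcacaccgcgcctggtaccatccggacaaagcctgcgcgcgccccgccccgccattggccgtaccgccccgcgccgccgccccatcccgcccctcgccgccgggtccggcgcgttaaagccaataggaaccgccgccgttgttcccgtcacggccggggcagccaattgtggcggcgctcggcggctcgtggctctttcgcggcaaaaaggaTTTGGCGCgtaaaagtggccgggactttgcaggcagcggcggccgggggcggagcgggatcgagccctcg
MCM7: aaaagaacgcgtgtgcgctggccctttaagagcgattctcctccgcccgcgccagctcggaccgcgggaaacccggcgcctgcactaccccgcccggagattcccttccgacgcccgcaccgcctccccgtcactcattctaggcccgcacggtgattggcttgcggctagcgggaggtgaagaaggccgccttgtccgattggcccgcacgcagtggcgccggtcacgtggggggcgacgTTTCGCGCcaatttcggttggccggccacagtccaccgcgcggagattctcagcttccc
PLK1: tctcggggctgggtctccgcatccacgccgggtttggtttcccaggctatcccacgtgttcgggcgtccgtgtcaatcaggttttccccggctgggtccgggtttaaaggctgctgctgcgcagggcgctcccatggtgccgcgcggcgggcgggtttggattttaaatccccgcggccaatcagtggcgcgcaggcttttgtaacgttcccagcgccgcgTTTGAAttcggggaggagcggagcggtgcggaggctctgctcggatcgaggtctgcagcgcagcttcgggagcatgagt
CCNB2: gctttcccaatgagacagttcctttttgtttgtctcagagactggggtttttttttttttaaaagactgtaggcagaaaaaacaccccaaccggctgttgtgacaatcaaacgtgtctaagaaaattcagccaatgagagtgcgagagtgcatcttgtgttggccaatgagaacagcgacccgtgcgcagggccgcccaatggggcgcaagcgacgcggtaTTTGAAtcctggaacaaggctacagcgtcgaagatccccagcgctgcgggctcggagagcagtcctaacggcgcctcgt

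The word begins 20 bases before the start in E2F1 and 9 bases before it in MCM7, and the core begins 29 bases before it in both PLK1 and CCNB2. E2F1 itself measured 33.7, 24.3 and 25.6 CPM with vehicle and 46.8, 36.3 and 40.4 CPM with Wnt3A (0.57 ± 0.14, adjusted p = 0.0153). PLK1, the polo-like kinase of mitotic entry, measured 36.3, 31.8 and 36.6 CPM with vehicle and 48.9, 45.5 and 44.9 CPM with Wnt3A (0.41 ± 0.09, adjusted p = 0.00308). CCNB2, cyclin B2, measured 26.9, 23.8 and 20.3 CPM with vehicle and 30.8, 35.8 and 27.9 CPM with Wnt3A (0.41 ± 0.12, adjusted p = 0.0294). In each of these genes the Wnt3A libraries lay above the vehicle libraries, by less than 2-fold between the means. Exons of MCM7 overlap those of AP4M1 on the other strand.

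The TCF/LEF word CTTTGAA was searched on both strands together with its variant CTTTGAT and with the further variants of that word, CTTTGTA and CTTTGTT. At least 1 of these words was found in 11.7% of the windows of genes that rose, 12.2% of those that fell, 8.31% of tested genes and 13.9% of all windows. The first of them contains the TTTGAA core. The share was thus alike in genes that rose and fell, and sites farther from the start were not searched. FAM162B, one of the 15 largest rises at 1.39, 0.80 and 0.665 CPM with vehicle and 7.17, 5.66 and 2.83 CPM with Wnt3A, and DKK1 each hold 2 of these words, on either strand, and are shown with them in capitals; they were chosen after their values were seen. The windows are chr6:116765670-116765969 on the minus strand and chr10:52314031-52314330 on the plus strand (GRCh38.p14).
FAM162B: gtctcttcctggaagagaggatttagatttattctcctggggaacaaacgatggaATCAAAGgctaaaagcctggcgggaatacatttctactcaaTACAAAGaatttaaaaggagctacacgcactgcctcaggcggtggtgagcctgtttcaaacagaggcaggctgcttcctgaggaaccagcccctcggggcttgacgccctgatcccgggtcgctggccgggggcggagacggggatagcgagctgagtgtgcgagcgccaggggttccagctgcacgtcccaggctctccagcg
DKK1: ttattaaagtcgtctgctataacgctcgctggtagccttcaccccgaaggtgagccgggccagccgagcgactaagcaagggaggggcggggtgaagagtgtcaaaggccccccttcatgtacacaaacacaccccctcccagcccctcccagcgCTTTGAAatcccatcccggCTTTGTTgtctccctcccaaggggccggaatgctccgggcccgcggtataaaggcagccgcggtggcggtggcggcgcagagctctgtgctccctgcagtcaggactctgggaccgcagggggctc

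The words begin 195 and 154 bases before the start in FAM162B and 95 and 76 bases before it in DKK1. The groups of FAM162B did not overlap (2.44 ± 0.50, adjusted p = 0.00399).

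Genes of the antioxidant programme fell together. NRF2, encoded by NFE2L2, is the factor that switches on glutathione, thioredoxin and detoxification genes under oxidative stress, and it also feeds the pentose phosphate pathway, which makes NADPH. Of 40 tested members 25 fell and none rose, with a median of -0.31, while 3.33% of all tested genes fell. In all, 32 of the 40 were lower in each of the 3 experiments, beside 21.3% of all tested genes. The count stayed between 18 and 26 when each of the 6 libraries was left out in turn.

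NFE2L2 itself measured 531, 571 and 503 CPM with vehicle and 344, 354 and 336 CPM with Wnt3A (-0.64 ± 0.069, adjusted p = 5.03e-07). TXNRD1, thioredoxin reductase, measured 2073, 2043 and 2319 CPM with vehicle and 1431, 1369 and 1557 CPM with Wnt3A (-0.56 ± 0.068, adjusted p = 2.58e-06). SRXN1, which repairs peroxiredoxins, measured 340.0, 304 and 351 CPM with vehicle and 223, 218 and 232 CPM with Wnt3A (-0.56 ± 0.071, adjusted p = 5.05e-06). Each of these genes was lower in every Wnt3A library than in any vehicle library. OSGIN1, ABCC3, GSR and PGD fell by 0.77, 0.55, 0.46 and 0.37 on the log2 scale; they encode an oxidative stress growth inhibitor, an efflux pump, glutathione reductase and phosphogluconate dehydrogenase. AKR1B10, an aldo-keto reductase with close paralogues whose reads may be shared, measured 7.48, 7.04 and 6.99 CPM with vehicle and 2.61, 3.103 and 2.33 CPM with Wnt3A (-1.42 ± 0.24, adjusted p = 0.000175). Exons of NFE2L2 overlap those of AGPS and HNRNPA3 on the other strand. HMOX1, haem oxygenase and a standard NRF2 target, did not pass without the block, at 63.1, 80.96 and 102 CPM with vehicle and 48.6, 71.01 and 83.6 CPM with Wnt3A (adjusted p = 0.676, with block 0.00633); it differed more between experiments than between treatments. KEAP1, the repressor of NRF2, did not pass either.

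NRF2 binds the antioxidant response element, searched here as TGACNNNGC on both strands. It was found in 7 of 32 windows of the list, or 21.9%, beside 15.2% of tested genes and 13.6% of all windows. It was about as frequent in the lists that rose, at 21.1% of replication windows and 20.6% of mitosis windows. TXNRD1 holds it at 99 and at 8 bases before its start (chr12:104215529-104215828, plus strand, GRCh38.p14), shown in capitals because this gene was abundant and fell.
TXNRD1: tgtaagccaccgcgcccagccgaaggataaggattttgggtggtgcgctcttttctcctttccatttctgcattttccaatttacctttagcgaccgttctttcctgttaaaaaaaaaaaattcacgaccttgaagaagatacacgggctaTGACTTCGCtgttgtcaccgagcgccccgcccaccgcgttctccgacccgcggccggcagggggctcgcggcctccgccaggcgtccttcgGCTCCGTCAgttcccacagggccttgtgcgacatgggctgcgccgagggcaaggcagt

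**Figure D3:**
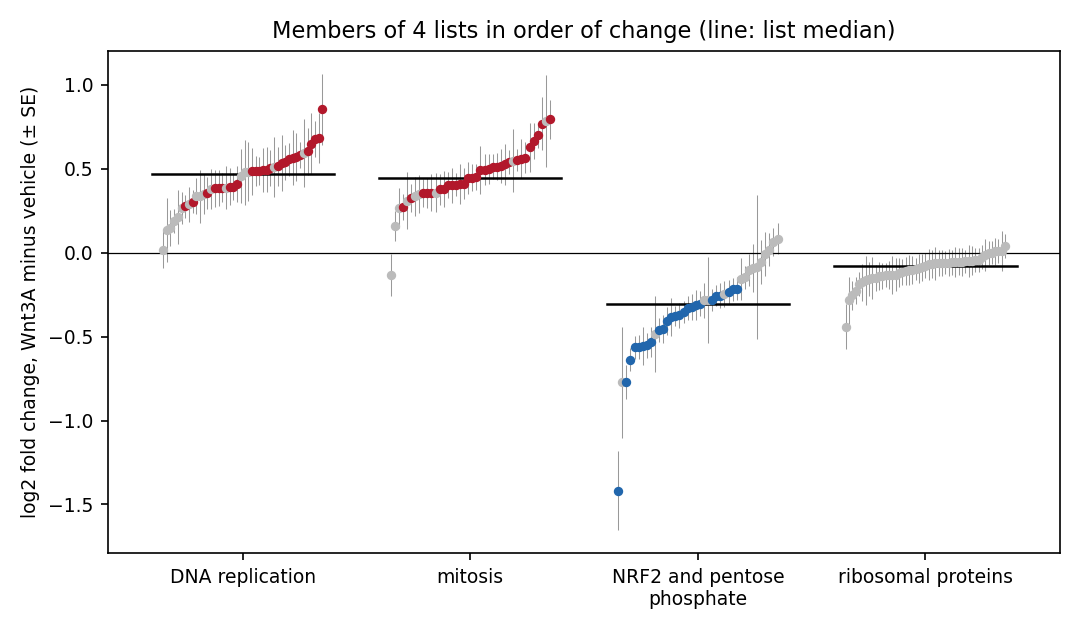
Members of 4 lists in order of their log2 fold change, Wnt3A minus vehicle, with standard errors; red points rose and blue points fell at adjusted p under 0.05, grey points did not pass, and black lines are list medians. The replication and mitosis medians are 0.47 and 0.45, that of the NRF2 list is -0.31, and the 49 ribosomal genes hold no call.

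More cytokine and growth factor genes fell than rose. Of 36 tested cytokine, chemokine and receptor genes, 10 fell and 6 rose, with a median of -0.27. That is 27.8% and 16.7%, beside 3.33% and 4.96% of all tested genes. IL6ST, the shared signal receptor gp130, fell from 2249, 2567 and 3081 CPM to 1553, 1450.0 and 1663 CPM (-0.76 ± 0.087, adjusted p = 3.05e-06). IL6 measured 65.9, 48 and 55.1 CPM with vehicle and 36.8, 34.3 and 37.7 CPM with Wnt3A (-0.63 ± 0.10, adjusted p = 0.000103). CSF1, the macrophage growth factor, measured 376, 412 and 449.6 CPM with vehicle and 242, 249.9 and 286 CPM with Wnt3A (-0.67 ± 0.11, adjusted p = 0.000503). All 3 were lower in every Wnt3A library than in any vehicle library. IL6R fell by 0.56 on the log2 scale, and the chemokines CCL2 and IL8 fell by 0.69 and 0.85. CXCL1 had a like size, -0.98, but overlapping groups at 50.6, 43.5 and 24.8 CPM with vehicle and 27.9, 21.7 and 10.6 CPM with Wnt3A; its adjusted p was 0.267, and 2e-11 with the block. IL16, IL24, CXCL14, OSMR, CCR1 and VCAM1 rose. CXCL14 measured 15.5, 15.04 and 22.9 CPM with vehicle and 40.4, 50.9 and 60.02 CPM with Wnt3A (1.5 ± 0.35, adjusted p = 0.0349). Without Wnt3A replicate 1 the number that rose was 3.

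Prostaglandin genes split between receptors. PTGER3 rose as given above and SLCO2A1, the prostaglandin importer, measured 3.48, 3.04 and 2.66 CPM with vehicle and 9.78, 6.39 and 8.64 CPM with Wnt3A (1.44 ± 0.23, adjusted p = 8.53e-05). The other called members fell, 6 of 20 tested: PTGER4, PTGIR, PTGS1, PTGES, TBXAS1 and PLA2G4A. PTGER4, the EP4 receptor, measured 53.2, 56.96 and 49.2 CPM with vehicle and 37.5, 37.97 and 40.9 CPM with Wnt3A (-0.45 ± 0.092, adjusted p = 0.0015), opposite in direction to the EP3 receptor and with no overlap. Without Wnt3A replicate 3, 3 members fell in place of 6, and PTGIR lost its call in 5 of 18 alternatives. PTGS1, the constitutive cyclooxygenase, measured 119, 91.5 and 125 CPM with vehicle and 76.9, 54.8 and 56.5 CPM with Wnt3A (-0.83 ± 0.19, adjusted p = 0.0202). PTGS2, the inducible one, was at 17.4 to 19.5 CPM with vehicle and 11.6 to 16.6 CPM with Wnt3A, and it passed only with the block (adjusted p = 0.126, with block 0.0274).

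Among 31 tested growth factor and receptor genes 9 fell and 3 rose, with a median of -0.16. Besides FGF7, the hepatocyte growth factor gene HGF measured 306, 339 and 314 CPM with vehicle and 235, 223 and 206 CPM with Wnt3A (-0.53 ± 0.07, adjusted p = 9.29e-06). PDGFRA, a growth factor receptor of stromal fibroblasts, measured 326, 361 and 408 CPM with vehicle and 238, 222 and 253 CPM with Wnt3A (-0.62 ± 0.094, adjusted p = 0.000139). VEGFA, the vascular growth factor, measured 84.9, 96.5 and 80.01 CPM with vehicle and 54.4, 65.7 and 63.7 CPM with Wnt3A (-0.51 ± 0.09, adjusted p = 0.00034). Each fell in all 3 experiments with no overlap. FGF2, FGF9, KITLG, PDGFD and EGFR also fell. KIT, the receptor of KITLG, rose, at 16, 21.3 and 15.5 CPM with vehicle and 38.6, 42.7 and 35.6 CPM with Wnt3A (1.14 ± 0.12, adjusted p = 4.4e-07). RET and FGFR3 rose by 0.77 and 1.15.

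In the IGF axis STC1, a secreted inhibitor of the protease PAPPA, measured 426, 421 and 533 CPM with vehicle and 802, 792 and 948 CPM with Wnt3A (0.88 ± 0.13, adjusted p = 0.000528). IGFBP5 fell from 1133, 1025 and 1156 to 776, 594 and 672 CPM (-0.70 ± 0.084, adjusted p = 4.16e-06). IGF1R and IRS1 rose by 0.33 and 0.35. These were the 4 called of 14, with 5 higher and 2 lower under the block. IGFBP3 joined only then: it measured 164, 138 and 94.5 CPM with vehicle and 88.8, 69.9 and 50.7 CPM with Wnt3A. The groups did not overlap but the experiments lay far apart, with an adjusted p of 0.0731 without and 1.85e-12 with the block.

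Signals of the BMP and TGF-β families, which oppose or shape Wnt activity along the crypt, showed mixed changes. FST, follistatin, which binds activins, measured 104, 100.0 and 105 CPM with vehicle and 58.2, 62.1 and 59.4 CPM with Wnt3A (-0.78 ± 0.083, adjusted p = 3.43e-07). BMP2 fell from 261, 257 and 265 to 200.5, 201 and 224 CPM (-0.32 ± 0.064, adjusted p = 0.00119). Both fell, with groups that did not overlap. BMP7 and ID2 rose and ID1, a direct BMP target, fell. Of 25 tested BMP genes 3 rose and 3 fell (5 and 5 with the block). BMP7 and ID2 each lost the call in 7 of 18 alternatives, and 1 BMP gene rose without Wnt3A replicate 1 or 3. GREM1, the antagonist that marks subepithelial cells at the crypt base, measured 772, 673 and 616 CPM with vehicle and 1046, 1019 and 834 CPM with Wnt3A. Its groups did not overlap, its adjusted p was 0.0834 without and 7.38e-12 with the block, and experiment 3 was lowest in both groups. Of 23 TGF-β genes, INHBA, LRRC32 and TGFB2 rose (0.75, 0.73 and 0.34) and THBS1 fell (-0.25), and with the block 5 rose and 5 fell. Without the block the share that fell, 4.35%, was near the 3.33% of all tested genes. The fall of THBS1 was lost in 5 of 18 alternatives, among them those without vehicle replicate 1, vehicle replicate 3, Wnt3A replicate 2 or Wnt3A replicate 3, and 3 genes fell without Wnt3A replicate 1. INHBB fell by 1.23 while INHBA rose, so the activin chains moved in opposite directions.

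Genes of the myofibroblast state did not move as a block. ACTA2, smooth muscle actin, measured 195, 108 and 129 CPM with vehicle and 168, 99.7 and 134 CPM with Wnt3A, with overlapping groups and its highest level in experiment 1 of each (-0.10 ± 0.28, adjusted p = 0.917). Its change turned from -0.10 to 0.18 without vehicle replicate 1 and to 0.067 without Wnt3A replicate 2. Of 31 contractile and cytoskeletal genes 5 rose and 2 fell, and with the block 8 rose and 6 fell. The number that rose was 3 without vehicle replicate 2, Wnt3A replicate 1 or Wnt3A replicate 3, and the number that fell was 0 without Wnt3A replicate 2 and 1 without each of the others but vehicle replicate 3. PDPN, podoplanin, measured 57.2, 60.96 and 58.05 CPM with vehicle and 105, 118 and 103 CPM with Wnt3A (0.89 ± 0.08, adjusted p = 2.06e-08). FAP, fibroblast activation protein, measured 24.9, 29.3 and 24.1 CPM with vehicle and 39.8, 45.3 and 40.6 CPM with Wnt3A (0.68 ± 0.11, adjusted p = 0.000189). CALD1, caldesmon, measured 1489, 1276 and 1561 CPM with vehicle and 2015, 1806 and 2030.0 CPM with Wnt3A (0.44 ± 0.076, adjusted p = 0.000302). For each of these the groups were separate. MYLK, myosin light chain kinase, fell by 0.27 and MYOCD, the myocardin coactivator of smooth muscle genes, by 0.88 on the log2 scale. TAGLN, CNN1, MYL9 and TPM1 did not pass without the block.

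In the matrix, FN1 and COL6A3 rose and COL6A1, COL15A1 and FBN1 fell. COL6A3, the long chain of collagen VI, measured 5689, 5891 and 7478 CPM with vehicle and 8809, 8468 and 10130.0 CPM with Wnt3A (0.52 ± 0.11, adjusted p = 0.00824). COL6A1, the partner chain, measured 3398, 3346 and 3045 CPM with vehicle and 3023, 2714 and 2605 CPM with Wnt3A (-0.23 ± 0.069, adjusted p = 0.0365). FN1, fibronectin, measured 4794, 5628 and 6036 CPM with vehicle and 6917, 6695 and 7058 CPM with Wnt3A (0.33 ± 0.076, adjusted p = 0.00502). The groups of each of these genes were separate, but COL6A1 lost its call in 6 of 18 alternatives, COL15A1 in 5 and COL6A3 without vehicle replicate 1. COL1A1, COL1A2 and COL3A1 did not pass (-0.11, 0.03 and -0.076). Over 24 collagen genes 2 rose and 2 fell, and with the block 3 rose and 7 fell. Without the block that is 8.33% each way, beside 4.96% higher and 3.33% lower over all tested genes. The fallen collagens numbered 0 without vehicle replicate 1, Wnt3A replicate 2 or Wnt3A replicate 3, 1 without vehicle replicate 2, 5 without Wnt3A replicate 1 and 0 at an adjusted p under 0.01. FBN1 was not called without vehicle replicate 3 or Wnt3A replicate 2. The heparan sulphate genes GPC3 and GPC4 rose and GPC6 and EXT1 fell; GPC6 lost its call in 7 of 18 alternatives. GPC4 measured 250.4, 273 and 242 CPM with vehicle and 413, 403 and 396 CPM with Wnt3A (0.66 ± 0.065, adjusted p = 1.02e-07).

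Of 29 proteases and their inhibitors 6 rose and 4 fell, and with the block 11 rose and 6 fell. Without Wnt3A replicate 1, 3 rose, and without vehicle replicate 3, 2 fell and PLAU was not called. PLAU, urokinase, fell from 1831, 1374 and 1514 to 1160.0, 925 and 1086 CPM (-0.57 ± 0.12, adjusted p = 0.0102). ADAMTS1 measured 879, 790.4 and 812 CPM with vehicle and 581, 513 and 529 CPM with Wnt3A (-0.61 ± 0.068, adjusted p = 7.65e-07). MMP1, interstitial collagenase, measured 128, 115 and 86.8 CPM with vehicle and 179.8, 196 and 168 CPM with Wnt3A (0.72 ± 0.16, adjusted p = 0.0195). ADAM19 rose by 0.99 and the protease inhibitor SPINT1 by 1.42. PLAU and ADAMTS1 were lower in all Wnt3A libraries and MMP1 was higher in all of them.

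Some sterol genes rose slightly. Of 28 cholesterol genes 9 rose, among them IDI1, INSIG1, ACAT2 and SREBF2, all by less than 0.40, and ABCA1 and NPC1 fell. The list median was 0.20, and 5 rose without vehicle replicate 2 or Wnt3A replicate 1 and 3 with DESeq2 on the 6 libraries alone. IDI1 measured 79.8, 73.1 and 78.3 CPM with vehicle and 104, 99.3 and 100.4 CPM with Wnt3A (0.39 ± 0.073, adjusted p = 0.00067). ABCA1, which exports cholesterol, measured 20.7, 26.2 and 29.4 CPM with vehicle and 16.5, 18.6 and 12.5 CPM with Wnt3A (-0.69 ± 0.14, adjusted p = 0.00128). SREBF2, the factor that drives sterol synthesis, rose by 0.28. The lipid desaturases SCD and FADS2 rose and the adipogenic factors PPARG, CEBPB and CEBPD fell. Of these 3 only 1 fell without vehicle replicate 2, Wnt3A replicate 1 or Wnt3A replicate 3, and CEBPD lost its call in 9 of 18 alternatives. PPARG measured 59.1, 61.4 and 53.1 CPM with vehicle and 38.1, 35.96 and 38.2 CPM with Wnt3A (-0.63 ± 0.092, adjusted p = 3.72e-05). The exons of FADS2 overlap those of FEN1 and FADS1. All called genes of these lists had groups that did not overlap. This sets them little apart, since the same held for 594 of all 606 genes that rose and 399 of all 407 that fell.

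Guidance, junction and ion channel genes gave several of the larger changes, while their medians were 0.14, 0.12 and -0.038. Of 32 teneurin, synaptic and guidance genes 11 rose and 3 fell, of 22 junction genes 6 rose and 2 fell, and of 24 ion channels 6 rose and 2 fell. SEMA3A, a repulsive guidance factor, measured 114, 123 and 151 CPM with vehicle and 218, 215 and 229.8 CPM with Wnt3A (0.77 ± 0.094, adjusted p = 9.97e-06). CLDN1, a tight junction claudin, measured 77.6, 55.04 and 71.03 CPM with vehicle and 34.2, 28.1 and 32.8 CPM with Wnt3A (-1.09 ± 0.12, adjusted p = 4.16e-06). SEMA3A was higher and CLDN1 lower in each Wnt3A library. NTN4, netrin-4, fell by 0.72 and GJA1, connexin 43, by 0.51 on the log2 scale, while SYTL2, SEMA3C and CLCN3 rose by 0.90, 0.48 and 0.74.

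Of 18 tested Notch, Hedgehog and forkhead genes 2 rose and 2 fell, and with the block 2 rose and 4 fell. Of 23 genes of retinoid metabolism and nuclear receptors 2 rose and 3 fell, and with the block 4 rose and 4 fell. Of 24 genes of MAP kinase feedback and the immediate early response 3 rose and 2 fell, and with the block 3 rose and 6 fell. RORA, an orphan nuclear receptor, measured 20, 19.8 and 23.1 CPM with vehicle and 55.4, 52.4 and 52.9 CPM with Wnt3A (1.35 ± 0.10, adjusted p = 1.01e-09). GLI3, a Hedgehog effector, measured 21.9, 36 and 28.9 CPM with vehicle and 57.04, 55.1 and 56.2 CPM with Wnt3A (0.95 ± 0.12, adjusted p = 5.23e-06). Both rose with no overlap. FOXL1, the forkhead factor of subepithelial telocytes, measured 76.2, 74.2 and 71.03 CPM with vehicle and 51.8, 46.5 and 43.9 CPM with Wnt3A (-0.64 ± 0.085, adjusted p = 9.71e-06). JAG1, a Notch ligand, measured 51.3, 49.6 and 53.9 CPM with vehicle and 34.7, 34.7 and 31.6 CPM with Wnt3A (-0.62 ± 0.09, adjusted p = 3.23e-05). Every Wnt3A library was below every vehicle library for FOXL1 and JAG1. The retinoid enzymes RDH10, which makes retinal, and CYP26B1, which degrades retinoic acid, both fell (-0.66 and -0.73). DUSP5, DUSP14 and ETV1 of the MAP kinase response rose while FOS and FOSB fell. FOSB lost its call in 8 of 18 alternatives and FOS and DUSP5 in 5 each; neither FOS nor FOSB was called without Wnt3A replicate 1 or 2.

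Several large lists held few called genes, although small falls were frequent in them. Of 41 oxidative phosphorylation genes none was called (2 lower with the block), with a median of -0.043. Of 49 ribosomal protein genes none was called and 4 fell with the block, with a median of -0.079. Of 35 interferon genes IRF1 and PSMB9 fell, with 5 lower under the block, and of 27 genes of the unfolded protein and stress response none was called (1 higher and 2 lower with the block). LYAR was the only one of 29 ribosome biogenesis genes called (-0.47 ± 0.10, adjusted p = 0.00266). Genes lower in all 3 experiments made up 48.6% of the interferon list, 48.2% of the stress response list, 37.9% of the ribosome biogenesis list, 36.7% of the ribosomal list and 26.8% of the oxidative phosphorylation list, beside 21.3% of all tested genes. Left-out libraries moved these counts: 3 ribosomal genes fell without vehicle replicate 3 and 1 without Wnt3A replicate 2, and 1 interferon gene fell without vehicle replicate 1, vehicle replicate 2, Wnt3A replicate 1 or Wnt3A replicate 3. PSMB9 lost its call in 7 of 18 alternatives. Ribosomal genes had mean log2 levels, relative to the vehicle mean, of 0.18, -0.040 and -0.14 with vehicle and -0.064, -0.064 and -0.15 with Wnt3A. For oxidative phosphorylation genes these were 0.14, -0.043 and -0.094 with vehicle and -0.052, -0.022 and -0.099 with Wnt3A. In both lists the gap was thus widest in experiment 1, where the vehicle library stood highest.

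**Figure D4:**
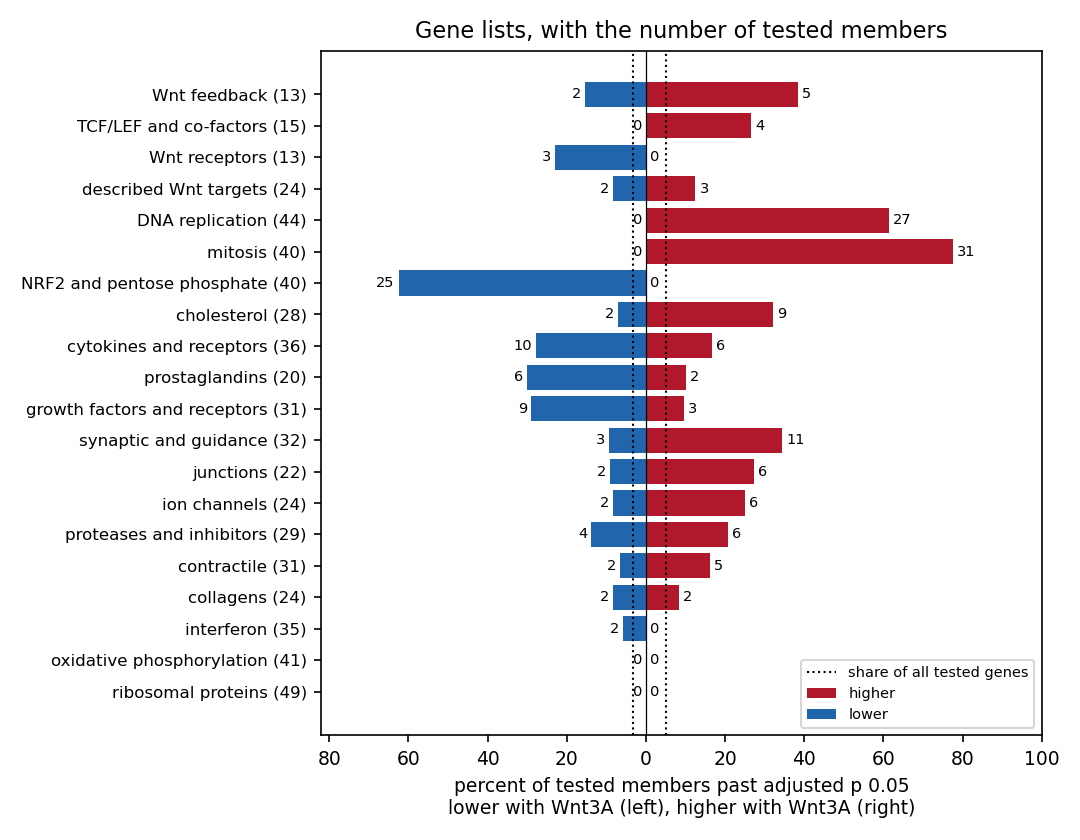
Percent of the tested members of 20 gene lists called higher (red, right) or lower (blue, left) with Wnt3A, with the number called beside each bar and the number tested in parentheses. Dotted lines mark the 4.96% and 3.33% of all tested genes, and the mitosis list with 31 higher and the NRF2 list with 25 lower stand farthest out.

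The response was next set beside that of cells that also received the hormone. Wnt3A+VD against VD uses none of the 6 libraries above, though it comes from the same 3 experiments. In that comparison 635 genes rose (5.2%) and 492 fell (4.03%); with the block the lower count was 870. Of the 606 genes raised by Wnt3A alone, 597 were higher there as well and 439 were called; of the 407 lowered, 404 were lower and 292 were called. None was called in the opposite direction. Over all tested genes 48.1% were higher and 51.9% lower. The medians were 0.45 and -0.37 for these 2 sets of genes.

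AXIN2, APCDD1 and CPLX2 changed by 2.79, 2.6 and 3.92 beside the hormone, against 3.17, 2.22 and 4.14 without it. The replication list held 28 genes raised and none lowered (median 0.42), the mitosis list 26 and none (0.44), and the NRF2 list none raised and 17 lowered (-0.27). Falls of SLC7A2, AKR1B10, INHBB and PTGIR did not pass beside the hormone (adjusted p = 0.269, 0.339, 0.114 and 0.623), and the difference itself did not pass for any of them.

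The test of the difference between the 2 responses called 0 genes (0%; 354 at an unadjusted p under 0.05, and 0 by DESeq2). With the experiment as a block it called 18 genes, or 0.147%, of which 10 were called for Wnt3A alone. WNT5A rose by 0.29 without and 0.64 with the hormone. STC1 rose by 0.88 and 1.65. ABCA1 fell by 0.69 without the hormone and had a change of 0.13 with it (adjusted p = 0.642). CXCL1 and PTGS1 were also among the 18: CXCL1 changed by -0.98 without and -0.28 with the hormone, and PTGS1 by -0.83 and -1.29.

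**Figure D5:**
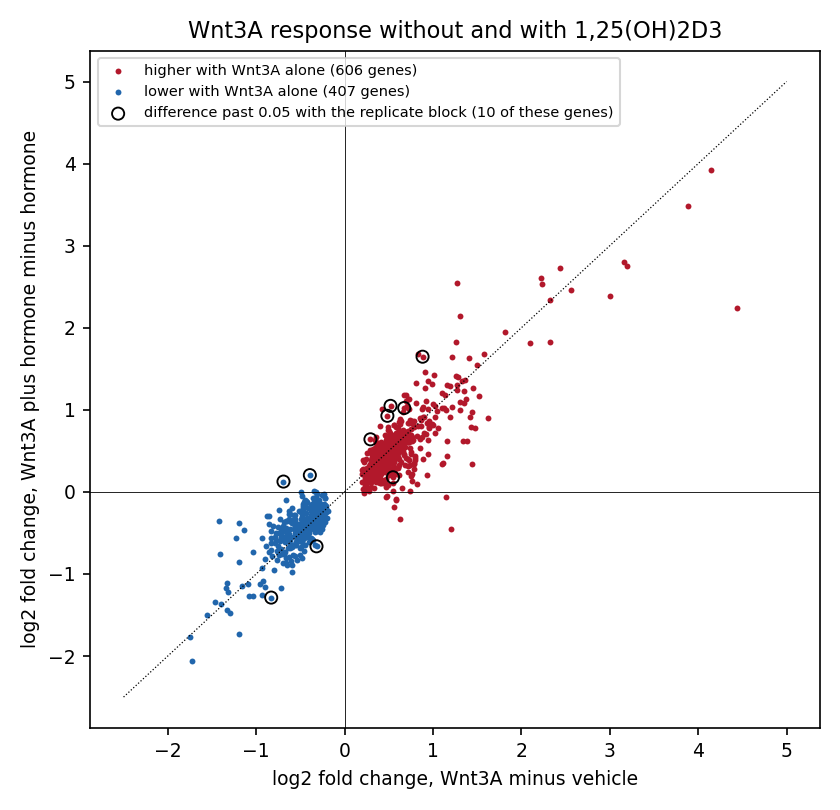
Each point is one of the 606 genes raised (red) or 407 lowered (blue) by Wnt3A alone, with its log2 fold change without the hormone on the horizontal axis and beside the hormone on the vertical axis; the dotted line marks equal change. Of these genes 597 and 404 keep their direction, and the 10 circled genes differ at adjusted p under 0.05 with the experiment as a block.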

How the data were processed

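Polyadenylated RNA was sequenced as stranded libraries with single reads of 40 bases. Per the labels and the methods, base calls were aligned by the authors with ELAND in CASAVA 1.8 to GRCh37 (hg19). How values were summed per gene, with which annotation and whether by strand, was not stated in the sources used here. The deposited counts are whole numbers whose low values are mostly multiples of 40 (78.4% to 80.1% of values up to 400 in the 6 libraries), so they were read as aligned bases, divided by 40 and rounded.

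Counts of all 12 libraries entered 1 fit of 4 group means (edgeR 4.0.16 in R 4.3.3, trimmed-mean scaling, minimum count 10, quasi-likelihood F test), with Benjamini-Hochberg adjustment over 12216 genes and a threshold of 0.05. The study numbered its experiments from 1 to 3. Deviations from the group means correlated at 0.35 to 0.54 in the 3 same-numbered pairs of vehicle and Wnt3A libraries, so the numbers pair the libraries. The 6 other pairs correlated at -0.42 to -0.062, which is no separate evidence, since deviations within a group sum to 0. The fit with the experiment as a block is given for printed counts that it moves by over 1.5 times. It is also given for some genes whose call it changes. DESeq2 1.42.0, other scalings and filters and leaving out each library were alternatives. Intervals of read ratios are 95% exact binomial intervals and cover counting error only.

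Genes named are the 15 largest rises and falls that averaged 1 CPM or more over the 6 libraries and moved alike in all 3 experiments, the 8 rises and 8 falls with the smallest p, those the study names for Wnt3A, and from each list up to 6 called members with the smallest p. Other members named were chosen after their values were seen. Members and lists were chosen with earlier results of these data known. Promoter windows came from RefSeq (GRCh38.p14) and were matched for 9823 of the tested genes. A few genes that this rule names are not reported here.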

Additional observations from a re-analysis of the deposited data

Results flagged for a closer look

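The change with Wnt3A differed between cells with and without the vitamin D hormone for 10 of the genes named or listed, but only when the experiment number was a block; without the block no gene passed edgeR's quasi-likelihood test of this difference. Each value is the log2 change with the hormone minus that without it, with its standard error and adjusted p. WNT5A, a non-canonical ligand, differed by 0.35 ± 0.065 (adjusted p = 0.00502). STC1, a secreted glycoprotein, differed by 0.76 ± 0.13 (adjusted p = 0.0431), and both genes rose more beside the hormone. CXCL1, a neutrophil chemokine, differed by 0.72 ± 0.13 (adjusted p = 0.00502), and TSLP, a cytokine, by 0.61 ± 0.12 (adjusted p = 0.00643). PTGS1, the constitutive cyclooxygenase, differed by -0.46 ± 0.099 (adjusted p = 0.0260). ABCA1, the cholesterol exporter, differed by 0.81 ± 0.16 (adjusted p = 0.00718). NPC1, which moves cholesterol out of lysosomes, differed by -0.35 ± 0.076 (adjusted p = 0.0260), so the 2 sterol transporters differed in opposite directions. ETV1, a transcription factor of the ETS family, differed by 0.44 ± 0.098 (adjusted p = 0.0285). RPS25, a ribosomal protein gene whose reads may be shared with processed copies, differed by 0.53 ± 0.12 (adjusted p = 0.0307). AMIGO2, an adhesion molecule whose exons overlap those of PCED1B on the other strand, differed by 0.35 ± 0.081 (adjusted p = 0.0499). Groups of 3 libraries are too small for a test of single outlying samples.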

How the results depend on the processing

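The count of 606 genes that rose was 351 with DESeq2 on the 6 libraries alone and 367 at an adjusted p under 0.01, and it ranged from 402 to 569 when each library was left out in turn. The count of 407 that fell was 262 with DESeq2 on the 6 libraries, 230 at an adjusted p under 0.01, 755 with the replicate block and 706 with the block on the 6 libraries, and it ranged from 294 to 409 with a library left out. With the hormone, 870 in place of 492 genes fell under the block, and the test of the difference called 18 in place of 0 genes. Of the 171 called genes named, 137 stayed called in the same direction under each of the 18 alternatives in which they could be tested. A gene filtered out of an alternative was not counted there. Among 3153 gene values 2971 kept direction and side of the threshold, 166 lost the call, 14 gained it and 2 turned, both for ACTA2 (0.18 without vehicle replicate 1 and 0.067 without Wnt3A replicate 2, in a range of -0.30 to 0.18). In edgeR the block added the calls of CCND1, DKK1, MMP14 and CYR61 and ended none, whereas DESeq2 with the block lost 11 of the called genes named and added CCND1 and MMP14. Of 70 list counts 41 moved by over 1.5 times in at least 1 alternative, 40 of them counts under 10 and 1 that of the replication list. Other scalings shifted the median log2 change of all genes only from -0.0037 to between -0.011 and 0.015. All libraries came from 1 line, and genes with few reads, such as NOTUM, could not be resolved at this depth. The causes of these differences were not tested.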
